A study of Mus musculus with 9 samples.

Results

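The cell cycle engine was followed through mouse spermatogenesis by 10 of its genes, the cyclins Ccna1, Ccna2, Ccnb1, Ccnb2, Ccnb3, Ccnd2 and Ccne1 and the cyclin-dependent kinases Cdk1, Cdk2 and Cdk4. They were chosen by name from the gene table, as 10 of 32285 genes, and all 10 were among the 26567 genes found in more than 15 cells. The libraries were single-cell RNA-seq of whole testis from C57BL/6 mice at postnatal day 24, with 1 library per mouse. The 4 Control mice were littermates and non-littermates of the mutants. In the 2 NELF-B cKO mice the floxed Nelfb gene, which encodes a subunit of the negative elongation factor that holds paused RNA polymerase II, was deleted by Stra8-iCre. In the 3 TDP-43 cKO mice the same Cre deleted part of Tardbp, which encodes the DNA- and RNA-binding protein TDP-43. The cKO mice carried a floxed and an already deleted allele of their gene. Stra8-iCre acts in spermatogonia, so somatic cells keep the floxed allele, and according to the study deletion was not yet complete in every germ cell at this age. The study refers to the controls as wild type, and whether any of them carried Cre is not stated in the sources used here.

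A cyclin binds and activates a Cdk, and the order in which cyclins appear and are destroyed sets the order of the cell cycle. D-type cyclins with Cdk4 drive the G1 phase and E-type cyclins with Cdk2 the entry into S phase. A-type cyclins serve S phase and G2, and B-type cyclins with Cdk1 serve division. Spermatogonia (SG) divide by mitosis. Preleptotene (pL) spermatocytes replicate their DNA for the last time, and then pass through the long prophase of meiosis as leptotene (L) and zygotene (Z), and later pachytene (P) and at last diplotene (D) spermatocytes, before the divisions that give haploid round spermatids (RS). Germ cells use versions of these proteins that other tissues hardly use, among them cyclin A1 and cyclin B3, and Cdk2 sits at telomeres and crossover sites in meiotic prophase.

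The gene table was built on the mm10 reference (GRCm38), and the 10 genes lie on 7 chromosomes. Cyclin A1 and A2 are both on chromosome 3, Ccna1 at chr3:55045469-55055501 and Ccna2 at chr3:36564865-36572150. The B-type cyclins are dispersed, with Ccnb1 at chr13:100778650-100786570, Ccnb2 at chr9:70407692-70421547 and Ccnb3 at chrX:6979652-7041619. Ccnd2 lies at chr6:127125162-127152193 and Ccne1 at chr7:38097984-38107534. All 3 kinases are on chromosome 10, Cdk1 at chr10:69335146-69352938, Cdk2 at chr10:128697939-128705031 and Cdk4 at chr10:127063534-127067920. Cdk4 is on the forward strand and the other 9 are on the reverse strand. Ccnb3 is the only X-linked gene of the 10. Ccnb1 and Ccnb2 each have a processed pseudogene elsewhere (Ccnb1-ps on chromosome 7 and Ccnb2-ps on chromosome 8), so some of their reads may have been shared with a near copy.

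The promoters of the B-type cyclins, of their kinase Cdk1 and of the germ cell cyclin Ccna1 are shown because the letters of the usual cell cycle elements are unevenly spread over them. The sequences are from RefSeq (GRCm38.p6), run from 250 bases before to 50 bases after the start, and are written 5′ to 3′ on the strand of the gene. The table used here held 8 of the 10 promoters, and Ccna2 and Ccnd2 were not among them. Capitals mark TTTGAA, the core of the cell cycle genes homology region, and CCAAT, the site known for the factor NF-Y, on either strand, so ATTGG is a CCAAT of the opposite strand.
Ccnb2 (chr9:70421505-70421804): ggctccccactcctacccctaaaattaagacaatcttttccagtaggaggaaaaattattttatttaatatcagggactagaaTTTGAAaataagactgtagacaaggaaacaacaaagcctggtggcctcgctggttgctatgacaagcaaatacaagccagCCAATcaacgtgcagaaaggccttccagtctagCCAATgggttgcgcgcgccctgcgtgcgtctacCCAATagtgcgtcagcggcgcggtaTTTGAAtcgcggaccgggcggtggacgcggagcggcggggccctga
Cdk1 (chr10:69352863-69353162): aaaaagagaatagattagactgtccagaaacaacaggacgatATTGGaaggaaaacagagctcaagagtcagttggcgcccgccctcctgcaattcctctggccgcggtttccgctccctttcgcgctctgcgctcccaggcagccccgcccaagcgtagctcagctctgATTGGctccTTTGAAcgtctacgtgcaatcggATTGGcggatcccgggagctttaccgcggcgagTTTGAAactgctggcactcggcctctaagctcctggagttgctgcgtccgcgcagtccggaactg
Ccnb1 (chr13:100786437-100786736): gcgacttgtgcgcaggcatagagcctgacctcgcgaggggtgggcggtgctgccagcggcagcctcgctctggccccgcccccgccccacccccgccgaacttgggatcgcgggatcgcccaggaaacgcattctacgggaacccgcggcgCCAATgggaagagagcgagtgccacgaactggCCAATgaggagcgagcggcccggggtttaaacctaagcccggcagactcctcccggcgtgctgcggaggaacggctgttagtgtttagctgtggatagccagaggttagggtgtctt
Ccna1 (chr3:55055006-55055305): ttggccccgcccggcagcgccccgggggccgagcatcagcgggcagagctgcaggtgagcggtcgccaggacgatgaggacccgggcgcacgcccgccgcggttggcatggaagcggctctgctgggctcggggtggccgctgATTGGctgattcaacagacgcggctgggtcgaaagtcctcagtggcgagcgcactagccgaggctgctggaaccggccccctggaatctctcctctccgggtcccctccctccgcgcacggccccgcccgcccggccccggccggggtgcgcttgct
Ccnb3 (chrX:7041570-7041869): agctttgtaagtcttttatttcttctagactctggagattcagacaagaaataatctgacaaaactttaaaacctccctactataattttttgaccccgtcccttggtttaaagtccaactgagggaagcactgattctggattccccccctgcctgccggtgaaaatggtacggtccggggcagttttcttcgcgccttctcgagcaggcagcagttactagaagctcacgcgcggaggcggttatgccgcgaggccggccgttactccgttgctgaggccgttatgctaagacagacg

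Ccnb2 and Cdk1 each held TTTGAA at 2 places and CCAAT at 3. Of 32851 mouse promoters of the same length, 17.9% held TTTGAA, 37.4% held CCAAT and 6.95% held both. Ccnb1 held 2 CCAAT and no TTTGAA, and Ccna1 and Cdk2 held 1 CCAAT. The Ccna1 window lies wholly inside the gene span given above, which starts further upstream, so its matches hold for the RefSeq start only. Neither set of letters was found in the windows of Ccnb3, Ccne1 and Cdk4. AACNG, the core of the site known for MYB proteins, was searched on both strands as well and was found in 80.3% of promoters, 7 times in Ccnb3, 6 times in Cdk1 and not in Ccnb2. TTTGAA and AACNG can share their letters where they meet, and a match is a string of letters, not a shown binding site.

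The libraries held 119203347 to 159407373 UMIs each, and 45132 barcodes passed the study's limits of more than 1000 genes and less than 10% of UMIs from mitochondria. Clusters with a low median of UMIs, with fewer than 3 markers, with leading genes of another class or led by haemoglobin genes were given no name. Named clusters held 2396 of 7626 kept barcodes in Control 1 and 2430 of 8457 in Control 2, where most were left out, and 3484 of 3947 in TDP-43 cKO 1. An unnamed cluster of 4146 cells came for 95.3% from Control 2. The 21 named clusters held 24596 cells, of which 15526 were germ cells of the 8 stages used here, and a further 1965 cells lay between SG and pL in a cluster left out of both, which only the sum over SG, pL, L and Z takes in. The 10 genes, the other cell cycle genes and both targeted genes were kept out of the clustering. Of the distinct barcodes, 260 occurred in more than 1 library. Each value below is a sum of UMIs over the cells of 1 mouse at 1 stage, divided by all UMIs of that sum and given per 1000000 UMIs (CPM). A sum of fewer than 20 cells was not used, which left TDP-43 cKO 1 and NELF-B cKO 2 out of D and RS and TDP-43 cKO 1 out of P. The counts cover the 3′ end of each transcript and give 1 UMI per captured molecule whatever its length, so no length correction was made. Whether capture and mapping differ between the genes was not measured, so levels of different genes are compared as UMIs only.

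The targeted genes checked the labels. Nelfb lay between 41.6 and 94.1 CPM in the control sums from undifferentiated SG to Z and between 0 and 7.56 in the NELF-B cKO sums. In RS, NELF-B cKO 1 gave 25 against 7.89 to 23.9 in the controls. Tardbp in Z lay between 234 and 274 in the controls and was 63.3, 85.5 and 92.9 after deletion of Tardbp. In P, however, Tardbp was 126 to 151 in the controls and stood at 143 and 164 in TDP-43 cKO 2 and 3, and in D 68.3 and 59.2 against 50.7 to 69.3. In Sertoli cells, which Stra8-iCre does not target, Nelfb was 19.2 to 29.7 in the controls and 4.98 and 10.8 in NELF-B cKO, and Tardbp was 92.7 to 114 in the controls and 81.6, 80.2 and 74.5 in TDP-43 cKO. These are 3′ tags, which need not lie in the deleted part, although those of Tardbp were lower in Z of the same mice. Whether the P and D cells of TDP-43 cKO carried the deletion was not tested.

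The first comparison asks how each gene changes from stage to stage in normal development. Between neighbouring stages of the 4 control mice, 32 of 70 member tests passed both thresholds used here, a change of at least 1 on the log2 scale with an adjusted p below 0.01, in edgeR's quasi-likelihood test with the mouse as a block and Benjamini-Hochberg adjustment over 19245 genes. Background shares were large. The same thresholds called 12.9% of all genes from undifferentiated to differentiating SG, 22.8% from there to pL, 11.8% from pL to L, 15.3% from L to Z, 35.7% from Z to P, 33.7% from P to D and 55.2% from D to RS. The members called were 4, 6, 3, 5, 5, 4 and 5 of 10 at these steps, above the background share up to Z and near it from Z to P onward. Into pL 5 members fell (15% of all genes did) and 1 rose (7.8%), with a median member change of -1.06 on the log2 scale beside -0.16 for all genes. From L to Z 3 rose and 2 fell, beside 8.96% and 6.38% of all genes (medians 0.34 and 0.14). From Z to P 5 fell and 0 rose, beside 14.7% and 21.1% (medians -0.40 and -0.01). In the text below "rose" and "fell" mean past both thresholds in this test. Log2 changes come from the fit, which scales the sums by TMM, so they can differ from those of the CPM values beside them. Unless stated otherwise, values in order are Control 1 to Control 4.

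**Figure D1:**
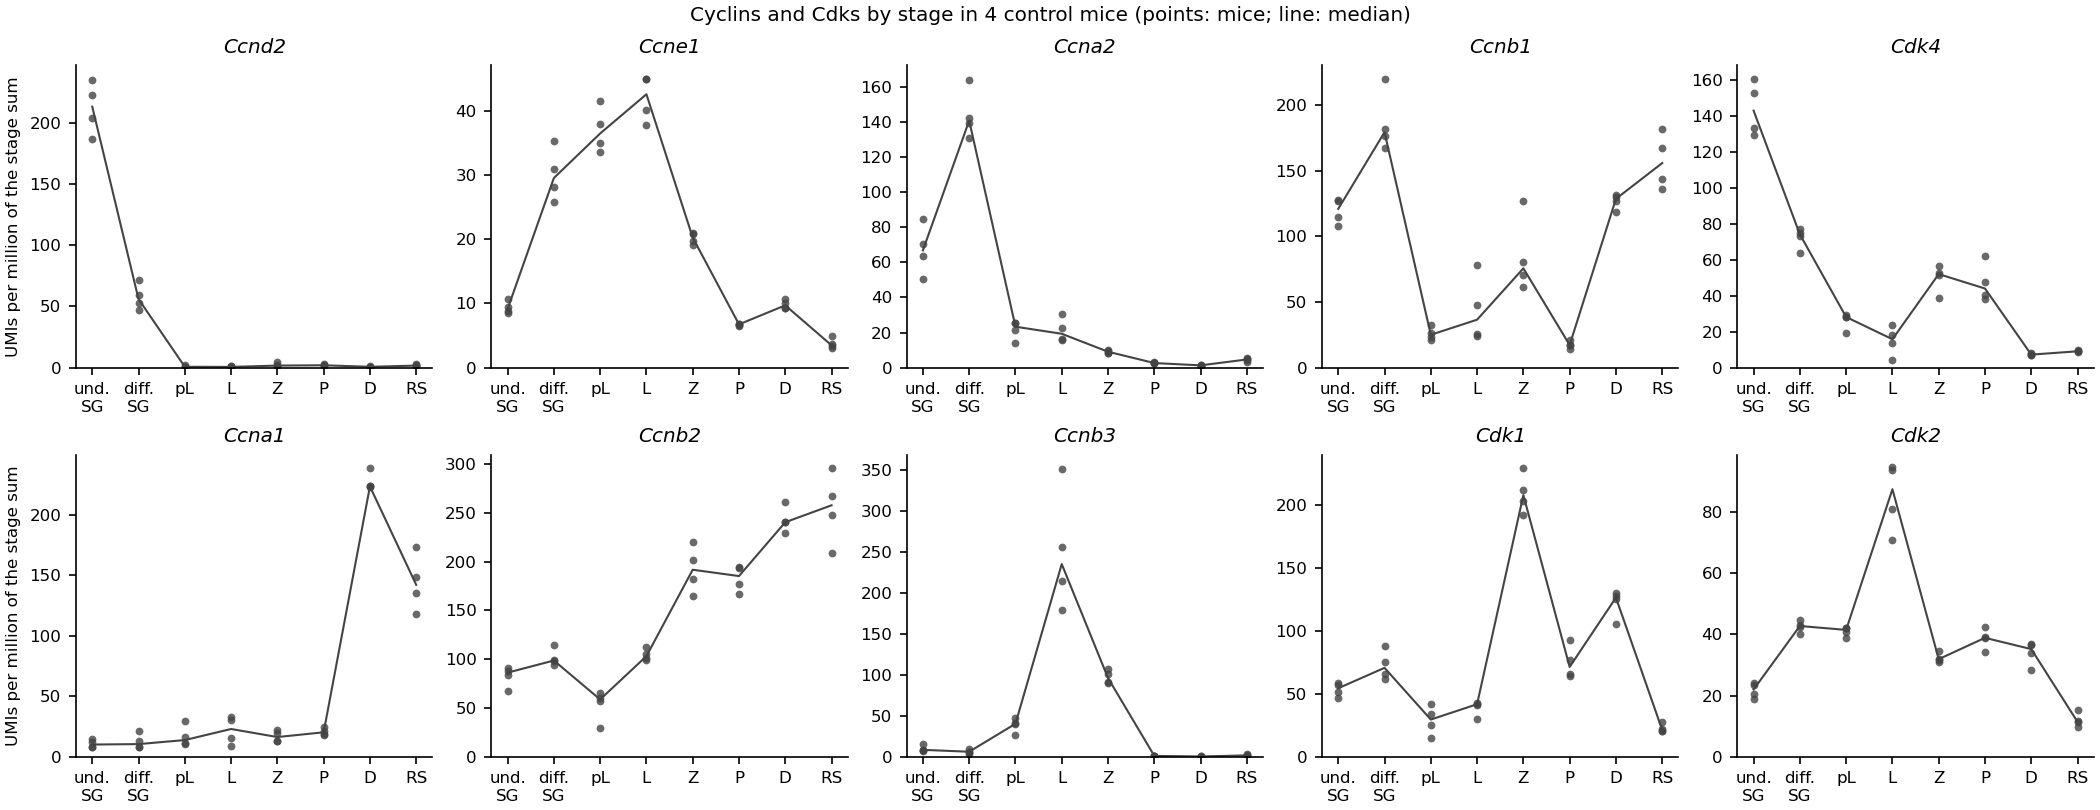
Level of each of the 10 genes in the 4 control mice, in CPM of each stage's sum (vertical axes, linear and starting at 0, a separate scale per gene), at the 8 stages from undifferentiated SG to RS. Each point is 1 mouse and the line joins the medians. Ccnd2 falls away after the spermatogonia, Ccne1 and Cdk2 are highest in L, Ccnb3 is found from pL to Z, Cdk1 is highest in Z, and Ccna1, Ccnb1 and Ccnb2 are high in D and RS.

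Ccnd2, the D-type cyclin of spermatogonia, was the most stage-restricted of the G1 genes. It stood at 204, 236, 187 and 223 CPM in undifferentiated SG and at 59.3, 47.2, 71.9 and 52.7 in differentiating SG. In pL it was at 1.75, 0, 0.62 and 0.61, so the ranges of these 3 stages did not overlap. The log2 change was -1.98 (SE 0.20, adjusted p = 3.9e-09) between the SG stages and -6.42 (SE 0.54, adjusted p = 2.01e-11) into pL. From L to RS all control sums lay between 0 and 4.23. The further drop from P to D, -1.21 (SE 0.37, adjusted p = 0.00512), is between sums of 19 to 63 UMIs in P and 1 to 16 in D, and Control 3 went the other way, from 0.849 to 1.12 CPM. It turned to 0.62 both with clusters made without integration and with cells thinned to 2000 UMIs, and was not called without Control 1, 2 or 4 in turn.

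Cdk4, the kinase partner of D-type cyclins, fell with Ccnd2 in the early steps but came back. It was 129, 133, 153 and 160 in undifferentiated SG, 77.1, 63.7, 74.7 and 73.4 in differentiating SG, and 28.1, 19.4, 29.1 and 28.1 in pL. After a low point in L, at 23.6, 18.0, 4.01 and 13.4, it stood at 51.3, 52.6, 38.8 and 56.6 in Z, where every mouse was above its own L value. The rise into Z was 2.08 on the log2 scale (SE 0.24, adjusted p = 2.69e-08). The fall from pL to L was called (-1.06, SE 0.29, adjusted p = 0.00477), but it was -0.65 without Control 3, the lowest mouse in L, and -1.10 without Control 4, and was called in neither case. In D Cdk4 fell again to between 6.71 and 8.11, a change of -2.41 (SE 0.15, adjusted p = 7.35e-15). Cdk4 was thus at levels of 38.3 to 61.8 in P, a stage at which Ccnd2 was at 0.849 to 2.87.

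Ccne1, the E-type cyclin that brings cells into S phase, rose as Ccnd2 fell. It was 9.49, 8.45, 8.77 and 10.7 in undifferentiated SG and 35.3, 31.0, 25.8 and 28.1 in differentiating SG (log2 change 1.61, SE 0.15, adjusted p = 7.1e-10). In the cells between SG and pL it was 22.9, 13.2, 20.4 and 16.2, below both neighbouring stages in each mouse. It was at 33.6 to 41.5 in pL and 37.8 to 45.1 in L, was near 20 in Z with a range of 19.2 to 20.9, and fell to 6.53 to 6.86 in P (-1.11, SE 0.13, adjusted p = 1.04e-08, and -0.97 without Control 4). Each of the P values lies below every Z value. D was at 9.22 to 10.6 and RS at 3.07 to 4.91, a log2 change of -1.81 (SE 0.14, adjusted p = 6.06e-13).

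Cdk2, the kinase of cyclins E and A, peaked at the same stage. Its levels were 19 to 24.1 in undifferentiated SG, 40.2 to 44.7 in differentiating SG and 38.8 to 42.2 in pL. In L the 4 mice gave 70.9, 94.6, 81.1 and 93.9, all above every other stage, and in Z 34.7, 32.1, 31.7 and 30.9. The rise into L was 1.03 (SE 0.13, adjusted p = 2.84e-07) and the change out of it -1.29 (SE 0.12, adjusted p = 3.47e-10). The rise lay just at the fold threshold, and it was under it without Control 2, 3 or 4 in turn. P and D ranged from 28.5 to 42.4, and RS from 9.6 to 15.1, a change of -1.92 from D (SE 0.10, adjusted p = 1.23e-16).

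The A-type cyclins exchanged places. Ccna2, the A-type cyclin of dividing somatic cells, was 50.8, 70.3, 84.6 and 63.5 in undifferentiated SG and 164, 131, 139 and 143 in differentiating SG. In the cells between SG and pL it was still at 124 to 150, and in pL it was 14, 21.2, 25.4 and 25.6. The change from differentiating SG to pL was -2.56 (SE 0.18, adjusted p = 3.07e-13), and it was -0.55 and not called when the cells in between were counted as pL. Z was at 8.29 to 10.2, P at 2.38 to 2.97 and D at 0.915 to 1.64. The step from undifferentiated to differentiating SG (1.01, SE 0.14, adjusted p = 1.22e-06) was at the fold threshold and was not past it without Control 1 (0.84) or Control 4 (0.97), nor with DESeq2 (0.93). In RS Ccna2 was at 3.2 to 5.21, above each D value, with a log2 change of 1.37 (SE 0.22, adjusted p = 1.41e-06). Barcodes of 1 to 100 UMIs held 9.53 to 17.0 CPM of Ccna2 in the control mice, above each of their RS values, and the part of free RNA in this change was not tested.

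Ccna1, which male mice need for the first meiotic division, rose as a late gene. In P the 4 mice gave 21.5, 24.5, 18.1 and 18.9 CPM, and in D 223, 223, 223 and 238. The log2 change was 3.71 (SE 0.20, adjusted p = 4.72e-16). RS were at 136, 174, 118 and 149, and the change of -1.06 (SE 0.18, adjusted p = 3.83e-06) was not called with DESeq2 (-0.53), without Control 3 (-0.89) or with 10% free RNA subtracted (-0.57).

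The values of Ccna1 in the early stages need the RNA outside cells beside them. Undifferentiated SG of the 4 control mice stood at 14.9, 7.77, 11.9 and 8.29. Barcodes of 1 to 100 UMIs, which hold no cell, stood at 142, 107, 113 and 106, so that 10% of free RNA in a sum would give 14.2, 10.7, 11.3 and 10.6. Sertoli cells, the somatic cells of the tubules, gave 64.4, 24.9, 48.8 and 30.4, above undifferentiated SG in each mouse. A Ccna1 UMI was found in 17.9% to 25.5% of undifferentiated SG and in 17.3% to 25.4% of Sertoli cells, and at 2000 UMIs per cell in 0.709% to 3.75% and 5.26% to 15.3%. The median cell held 18908.5 to 25599 UMIs in undifferentiated SG and 2075 to 2693.5 in Sertoli cells, and the shares at 2000 UMIs rest on 429 of 432 and 789 of 1300 cells. At that equal depth the shares of spermatogonia lay below those of a cell type which should lack the gene. They are read neither as expression nor as its absence. How much of the Ccna1 in spermatogonia is free RNA was not tested.

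**Figure D2:**
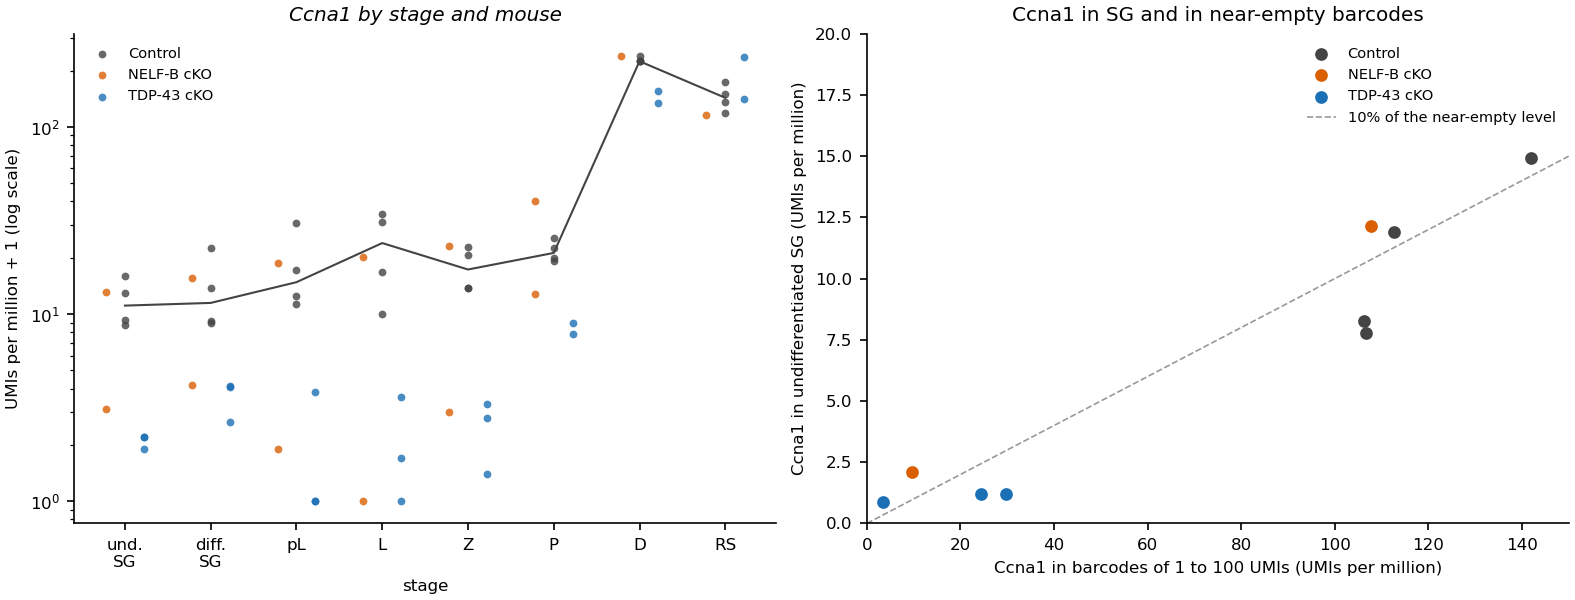
Left, Ccna1 by stage in every mouse (CPM + 1, log axis; 1 point per mouse, coloured by genotype, sums of at least 20 cells). Right, Ccna1 in undifferentiated SG (vertical) against the same gene in barcodes of 1 to 100 UMIs of the same mouse (horizontal), with a dashed line at 10% of the latter. The 4 control mice and NELF-B cKO 1 sit at 106 to 142 on the horizontal axis, and NELF-B cKO 2 and the 3 TDP-43 cKO mice at 3.52 to 29.8.

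The B-type cyclins kept 3 different courses. Ccnb1, the main mitotic B-type cyclin, was highest among SG in the differentiating cells, at 220, 177, 182 and 167, and fell in pL to 26.3, 21.2, 23.6 and 32.3 (-2.72, SE 0.23, adjusted p = 4.09e-11). The change was -0.92 and not called when the cells between SG and pL were counted as pL. Z was higher again at 127, 61.6, 70.5 and 80.6, P was at 14 to 20.8 and D at 119 to 131. The P to D rise of 3.15 (SE 0.19, adjusted p = 3.57e-15) and the Z to P change of -1.80 (SE 0.19, adjusted p = 7.87e-10) make P a trough between higher stages in each of the 4 mice. RS were at 144, 182, 136 and 168 CPM, above D in each mouse, while the fit, which scales the sums by TMM, gave a difference of the other sign (-0.08, adjusted p = 0.667), so no direction is read from it.

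Ccnb2, the second B-type cyclin, had no such trough. It stood at 94.0 to 115 in differentiating SG and at 64.9, 29.1, 60.7 and 56.8 in pL, then at 99.2 to 112 in L and 165 to 220 in Z. The L to Z step was 1.01 (SE 0.15, adjusted p = 1.02e-06) and was under the fold threshold with DESeq2 (0.82) and without Control 1 (0.99). P at 167 to 195, D at 229 to 261 and RS at 209 to 297 followed. In RS these levels stand beside those of free RNA. Barcodes of 1 to 100 UMIs held 162, 98.6, 137 and 113 CPM of Ccnb1 and 174 to 227 of Ccnb2, beside the 106 to 142 of Ccna1 given above, and the median RS held 2605, 5950, 3306 and 19218 UMIs. The part of free RNA in the RS levels was not tested. Pachytene cells held 167 to 195 CPM of Ccnb2 while Ccnb1 was at 14 to 20.8.

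Ccnb3, a cyclin of early meiotic prophase which oocytes need to leave the first meiotic metaphase, was high in L and Z. It was 3.8 to 9.59 in differentiating SG, 21.2 to 32.9 in the cells between SG and pL, and 26.3, 47.7, 40.9 and 39.7 in pL. In L it reached 180, 351, 214 and 256 and in Z 101, 89.7, 108 and 91.2. P held 1.06, 1.05, 0.938 and 1.14. The rises were 2.71 into pL (SE 0.29, adjusted p = 3.74e-09) and 2.62 into L (SE 0.25, adjusted p = 9.6e-10), and the change into P was -6.10 (SE 0.27, adjusted p = 5.09e-18). The fall from L to Z (-1.19, SE 0.21, adjusted p = 2.85e-05) turned to 0.21 with clusters made without integration, which held no separate pL cluster, and was -0.94 and not called without Control 2.

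Cdk1, the kinase of the B-type cyclins, was 58.3, 46.6, 51.7 and 57.2 in undifferentiated SG and 61.4 to 87.9 in differentiating SG. It was 102 to 137 in the cells between SG and pL and 42.1, 15.0, 34.1 and 25 in pL. The change into pL of -1.26 (SE 0.17, adjusted p = 3.42e-07) turned to 0.31 when those cells were counted as pL. From 30.0 to 42.5 in L it rose to 192, 203, 212 and 229 in Z, its highest stage in every control mouse (2.59, SE 0.17, adjusted p = 2.06e-13). In P it was 92.9, 65.8, 64.5 and 76.9 (-1.03, SE 0.12, adjusted p = 1.33e-08), just past the fold threshold and under it without Control 2, 3 or 4 in turn, and it stood at 105 to 130 in D. In RS it was 20.4 to 27.5, a change of -2.86 (SE 0.14, adjusted p = 4.74e-18).

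Ratios within a mouse set the mitotic and meiotic partners against each other, as UMIs of the first gene plus 1 over UMIs of the second plus 1. Ccna1 to Ccna2 had a median over the 4 control mice of 0.140 in undifferentiated SG, 1.04 in L, 7.83 in P, 174 in D and 34.3 in RS. In L Ccna1 stood at 9.01 to 33.1 CPM from 6 to 30 UMIs, below the Sertoli cells of the same mouse in each of the 4, and so the ratio near 1 there is not read as a crossing of the genes. In P Ccna1 was likewise below the Sertoli cells in each mouse. The ranges of P (7.27 to 8.17), D (131 to 247) and RS (25.3 to 35.6) did not overlap. Ccnb2 to Ccnb1 was 0.551 in differentiating SG and 10.8 in P, then 1.86 in D. The Cdk1 to Cdk2 ratio was lowest in L at 0.451 and highest in the next stage, Z, at 6.46, with ranges of 0.378 to 0.613 and 5.45 to 7.39. These are descriptions of the controls with no test.

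**Figure D3:**
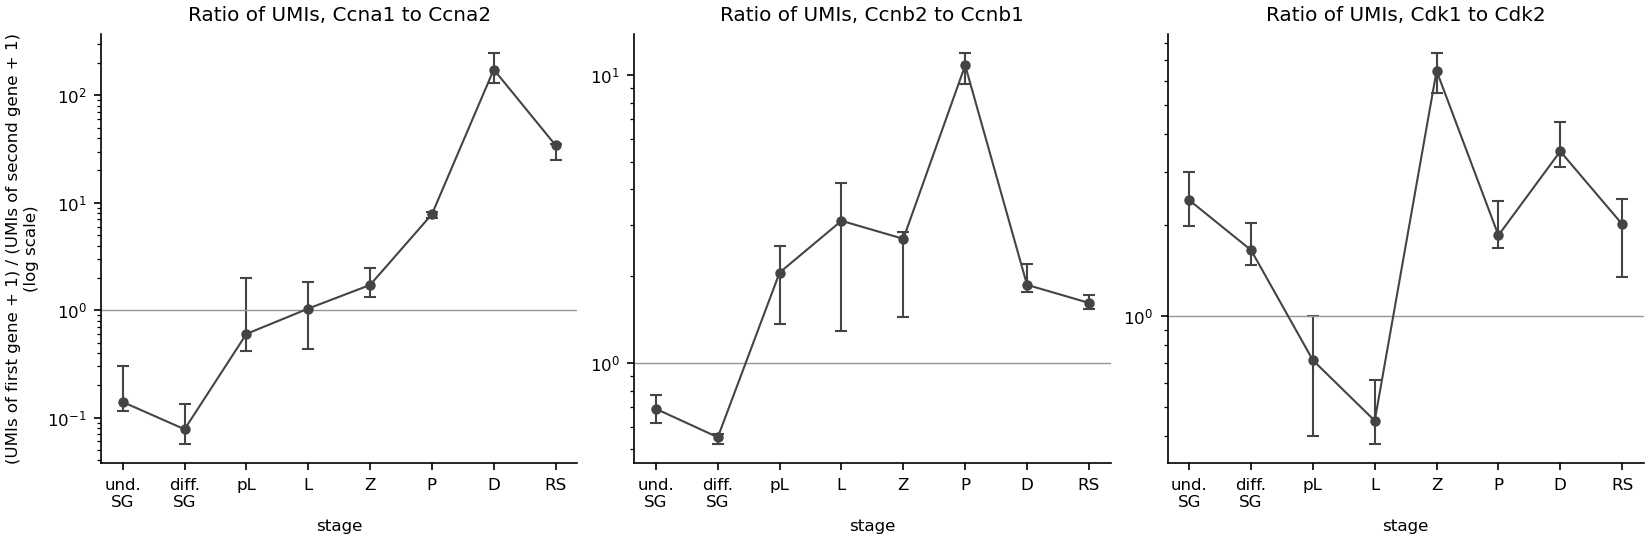
Ratio of UMIs of the first gene + 1 to UMIs of the second gene + 1 (log axis) at the 8 stages in the 4 control mice. Points are medians, bars run from the lowest to the highest mouse, and the horizontal line marks equal counts. Ccna1 to Ccna2 is highest in D and its values up to P rest on Ccna1 levels below those of Sertoli cells, Ccnb2 to Ccnb1 is highest in P, and the median of Cdk1 to Cdk2 is below 1 in pL and L.

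The genes whose control profile was most like each member were sought over 32 sums (4 mice by 8 stages) among 12772 genes with a mean of at least 5 CPM, by Pearson's r of log2 levels. Sums of 1 mouse share a library, and no p is given. Dydc1 (r = 0.980) was closest to Ccna1, Myo10 (0.972) and Cdca7 (0.969) to Ccna2, Pet2 (0.987) and Cmc4 (0.975) to Ccnb3, and Zbtb22 (0.956) to Ccnb2. For Ccnb1 the closest were Ncbp2 (0.876) and Plk1 (0.865), the polo-like kinase of division. Trim28 (0.870) and Cks2 (0.869), a small protein that binds Cdk1, were closest to Cdk1. Asphd2 and Erg (both 0.979) came first for Ccnd2, Arcn1 (0.952) for Ccne1, Kif15 (0.909) for Cdk2 and Mrpl14 (0.962) for Cdk4.

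Another 65 cell cycle genes in 10 lists were tested at the same steps, and those called were 20%, 43.1%, 29.2%, 32.3%, 38.5%, 41.5% and 64.6% of the 65 in the order of the steps, beside the background shares above. From undifferentiated to differentiating SG 9 rose and 4 fell, with E2f2 (2.75) and Fbxo5 (1.57), the inhibitor of the anaphase-promoting complex, rising and Cdkn1b (-4.50), the Cdk inhibitor p27, falling. Into pL 10 rose and 18 fell. The kinases of division Aurkb (-3.62) and Plk1 (-3.21), the phosphatase Cdc25c (-3.0) that activates Cdk1 and the ubiquitin-conjugating enzyme Ube2c (-2.82) fell with Ccnb1 and Ccna2. The Cdk2 partner Spdya (2.60), the other E-type cyclin Ccne2 (2.30), the Cdk inhibitor Cdkn2d (1.90) and Mybl1 (2.13), the MYB protein of spermatocytes, rose there.

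From pL to L 6 rose and 13 fell, among them the D-type cyclin Ccnd1 (-4.01) and Cdk14 (-3.40) downward and Fbxo43 (2.01), the meiotic inhibitor of the anaphase-promoting complex, upward. From L to Z 13 rose and 8 fell, and the Cdk1 partners Cks2 (2.44) and Cks1b (2.08) and the activator Cdc20 (2.38) rose at the step at which Cdk1 did. Z to P had 12 up and 13 down, with the Cdk1-inhibiting kinase Pkmyt1 (2.51) and Aurkc (2.21), the Aurora kinase of meiosis, rising. In D, 14 were higher and 13 lower than in P. Plk1 (3.63), Aurkb (3.46) and Foxm1 (3.05), a transcription factor of dividing cells, rose at the step of Ccna1 and Ccnb1. Of the 65 genes, 30 fell and 12 rose from D to RS, including Aurkb (-2.93) and the checkpoint kinase Bub1b (-2.64) downward and Rbl2 (4.39), a relative of the retinoblastoma protein, and Ccnd3 (3.85) upward.

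The second comparison asks how the same genes differ between either mutant and the controls. In P and D of TDP-43 cKO, Tardbp was not below the controls, so loss of TDP-43 from those cells is not shown. In the sum of SG, pL, L and Z, the stages the study itself compared, no member passed the thresholds in either mutant. Of 20009 genes, 0.01% passed in NELF-B cKO and 0.005% in TDP-43 cKO. This sum kept germ cells with UMIs of the targeted gene and took in the cells between SG and pL. The study removed germ cells expressing the targeted gene from the mutants, and its DESeq2 fit called more genes in each at like limits. In the sum used here, 3684 and 6443 genes had an unadjusted p under 0.05 in edgeR. DESeq2 called 0 and 2 members in the same sum, and its share of all genes is not given to set beside them. At an adjusted p under 0.05 without a fold limit, which held for 10.9% of all genes in TDP-43 cKO, 4 members passed in that mutant. Ccna1 was lower (-3.02, SE 0.66, adjusted p = 0.0401) and Ccnb2 was lower (-0.43, SE 0.10, adjusted p = 0.0408). Ccnb3 was higher (1.10, SE 0.16, adjusted p = 0.0348) and so was Cdk4 (0.62, SE 0.17, adjusted p = 0.0495). This sum mixes stages in unlike shares, with 80 to 141 undifferentiated SG, the stage of highest Cdk4, in the controls and 377, 318 and 380 in TDP-43 cKO. Within the single stages from undifferentiated SG to Z, the changes of Cdk4 in TDP-43 cKO were 0.28 to 0.41 and those of Ccnb2 -0.61 to -0.07, none with an adjusted p under 0.05 (lowest 0.106 and 0.0951). The part of the stage mix and of free RNA in the values of the sum was not tested. Both mutants were compared with the same 4 control mice. In NELF-B cKO the lowest adjusted p of a member was 0.128.

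Spermatogonia alone gave no called member in either mutant. The thresholds called 0.00538% of genes in NELF-B cKO and 0% in TDP-43 cKO, with 2254 and 3532 genes at an unadjusted p under 0.05. In the undifferentiated SG, Ccnd2 was 207 and 316 in NELF-B cKO and 231, 192 and 272 in TDP-43 cKO, against 187 to 236 in the controls, and in differentiating SG it was 10.6 in NELF-B cKO 1 and 62.7 in NELF-B cKO 2, with 57.1 to 64.9 in TDP-43 cKO. Ccna2 in differentiating SG was 146 and 162 and then 153, 135 and 129, against 131 to 164. Cdk1 there was 86.9 and 76.4 and then 71.1, 78.2 and 66.9, against 61.4 to 87.9. In differentiating SG the mutant values of Ccna2 and Cdk1 overlap with the controls. Other members lay apart from the controls without passing the test. Cdk4 in TDP-43 cKO was 179, 182 and 173 against 129 to 160 in undifferentiated SG (0.34, adjusted p = 0.106) and 95.8, 86.1 and 81.5 against 63.7 to 77.1 in differentiating SG (0.28, adjusted p = 0.268). Sertoli cells of TDP-43 cKO were above the controls as well, at 141, 133 and 146 against 83.5 to 121, and so were barcodes of 1 to 100 UMIs, at 102, 61.6 and 70.6 against 15.0 to 34.6, and their part in the Cdk4 values was not tested. Ccnb3 in differentiating SG of TDP-43 cKO was 11.8, 14 and 13 against 3.8 to 9.59 (1.00, adjusted p = 0.124), and in undifferentiated SG of NELF-B cKO 17.9 and 16.9 against 7.1 to 15.0 (0.81, adjusted p = 0.24). Ccna2 in undifferentiated SG of TDP-43 cKO was 88.4, 89.2 and 90.6 against 50.8 to 84.6 (0.42, adjusted p = 0.108). Ccnb2 lay below the controls, at 84.7, 85.9 and 75.4 in differentiating SG of TDP-43 cKO against 94.0 to 115 (-0.31, adjusted p = 0.203). In NELF-B cKO it was 63.5 and 60.3 against 66.9 to 91.4 in undifferentiated SG (-0.44, adjusted p = 0.216). In differentiating SG of NELF-B cKO it was 91.0 and 72.6 (-0.29, adjusted p = 0.377). Barcodes of 1 to 100 UMIs held 174 to 227 CPM of Ccnb2 in the controls. They held 216 and 50.9 in NELF-B cKO and 41.2, 86.0 and 75.8 in TDP-43 cKO. The part of free RNA in the Ccnb2 values was not tested. In NELF-B cKO Ccne1 was 11.6 and 11.1 against 8.45 to 10.7 in undifferentiated SG and 35.6 and 36.1 against 25.8 to 35.3 in differentiating SG, and neither passed the test. Cdk2 in differentiating SG of NELF-B cKO was 36.6 and 35.8 against 40.2 to 44.7 (-0.22, adjusted p = 0.369).

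**Figure D4:**
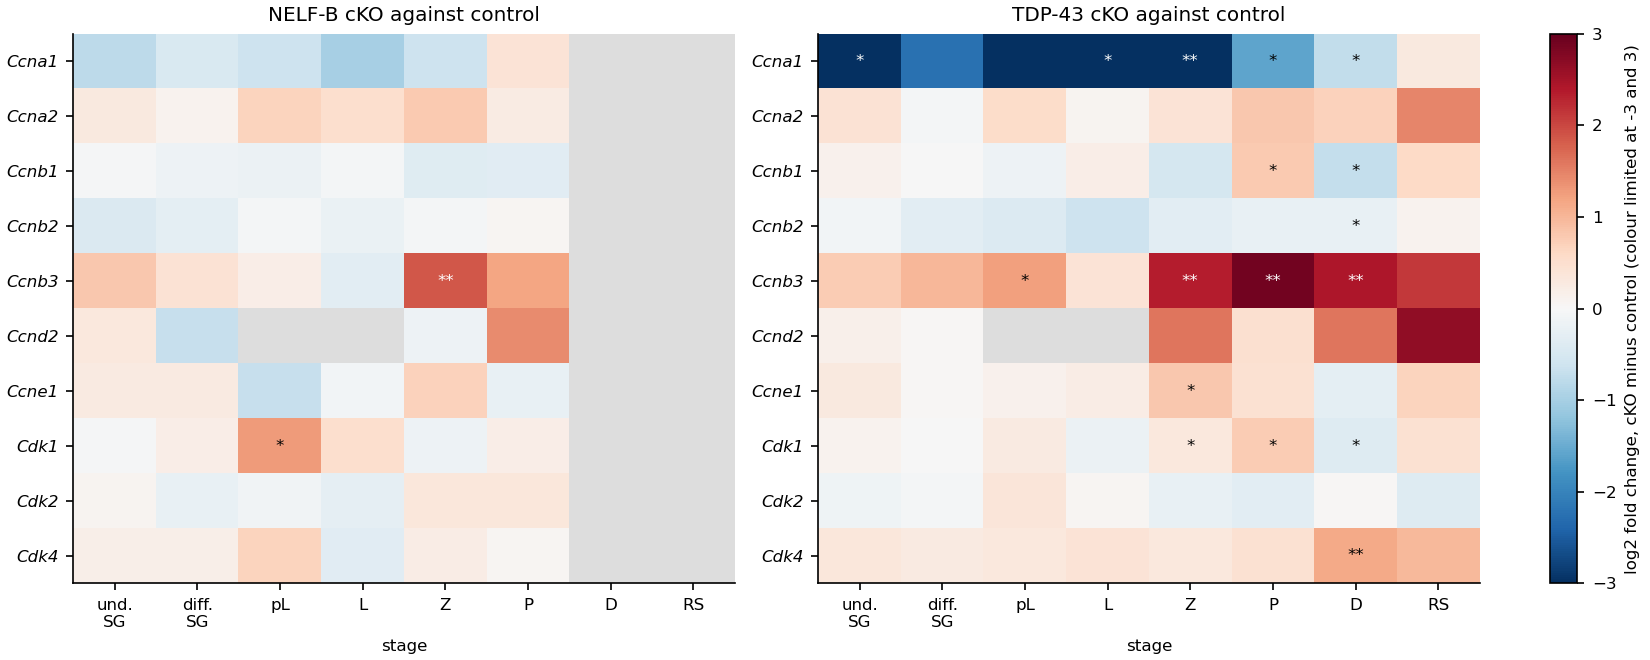
Log2 fold change of each member by stage, cKO minus control, for NELF-B cKO and TDP-43 cKO (colour limited at -3 and 3). A pair of stars marks a call by both thresholds, a single star an adjusted p under 0.05 only, and grey a stage or gene not tested. Ccnb3 in Z is called in both mutants, and in TDP-43 cKO Ccnb3 is also called in P and D.

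Ccnb3 in zygotene cells was the member that differed in both mutants. The 4 control mice gave 101, 89.7, 108 and 91.2 CPM, the NELF-B cKO mice 411 and 348, and the TDP-43 cKO mice 525, 444 and 502. The groups did not overlap, and every mutant lay above every control. The log2 change was 1.87 in NELF-B cKO (SE 0.12, adjusted p = 4.47e-05), where 1.29% of 13072 genes were called, and 2.35 in TDP-43 cKO (SE 0.11, adjusted p = 4.68e-07), where 6.48% were. The median change of the 10 members in Z was 0.08 and 0.32 in the 2 mutants, beside -0.01 and 0.02 for all genes. Both Ccnb3 calls remained under each alternative run and without each mouse in turn. A Ccnb3 UMI was found in 45.2% to 57.6% of control Z cells, in 78.7% and 80.7% of those of NELF-B cKO and in 85.0% to 95.6% of those of TDP-43 cKO. At 2000 UMIs per cell the shares were 18.6% to 22.2%, 32.1% and 55.6%, and 50.8% to 57.9%. Sertoli cells, which should lack it, had one in 0.369% to 3.29% of control cells, in 3.06% to 5.62% of NELF-B cKO cells and in 7.68% to 11% of TDP-43 cKO cells. Their Ccnb3 level was 0.49 to 6.11 CPM in the controls, 16.1 and 2.96 in NELF-B cKO and 5.67 to 10.4 in TDP-43 cKO. The median Sertoli cell held 2075 to 3577 UMIs in controls and NELF-B cKO and 7982 to 22468 in TDP-43 cKO, and the median Z cell 6792 to 16191.

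In L, where Ccnb3 is highest in normal mice, no difference passed the test. L held 180, 351, 214 and 256 in the controls, 167 and 226 in NELF-B cKO and 297, 306 and 341 in TDP-43 cKO, with log2 changes of -0.32 and 0.40 that did not pass, in a stage at which 0.939% and 0.0612% of genes were called. In pL TDP-43 cKO was at 80.6, 77.0 and 111 against 26.3 to 47.7, a change of 1.24 (SE 0.19, adjusted p = 0.0333) under the weaker limit of 0.05 only, which 3.64% of genes passed (0.00873% were called), and NELF-B cKO was at 42.6 and 47.5. From L to Z, Ccnb3 dropped in each control mouse and was higher in Z than in L in each of the 5 mutants. The difference of the L to Z change from the controls, a test added after the data were seen, was 2.17 in NELF-B cKO (SE 0.24, adjusted p = 6.05e-05) and 1.85 in TDP-43 cKO (SE 0.20, adjusted p = 5.06e-05), where 0.816% and 0.904% of 12502 genes were called. With clusters made without integration the NELF-B cKO value was 1.45 (adjusted p = 0.0135) and not called. The corresponding test from SG to pL, L and Z together called no member, with 0.0161% and 0.424% of all genes called and 3147 and 4040 at an unadjusted p under 0.05.

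In P, control cells were at 0.938 to 1.14, NELF-B cKO cells at 1.94 and 3.1 and TDP-43 cKO cells at 6.63 and 10.3, which were 36 and 48 UMIs. TDP-43 cKO was called there (2.90, SE 0.31, adjusted p = 0.00427, with 2.35% of all genes called), and so was D with 4.25 and 3.45 against 0.125 to 1.33 (2.43, SE 0.55, adjusted p = 0.00667, with 5.27% called). Both rest on 2 mutant mice, in which Tardbp at these stages was not below the controls, as given above. The P call was lost without each control mouse in turn and without each of TDP-43 cKO 2 and 3, with log2 changes of 2.51 to 3.17. The D call was lost without Control 3, Control 4 or either mutant, with log2 changes of 2.23 to 2.58. With clusters made without integration the P and D calls did not both remain. Barcodes of 1 to 100 UMIs held 2.51 to 14.7 CPM of Ccnb3 in the controls and 23.2, 53.5 and 52.7 in TDP-43 cKO, so that 10% of it would be at most 5.35. Neither the P call nor the D call of TDP-43 cKO remained with thinned cells or with free RNA subtracted. A call is also missing from a run in which the gene had no value to test. That held for most of the TDP-43 cKO calls missing with thinned cells. It also held for part of those missing with free RNA subtracted. NELF-B cKO in P had no called member, with 0.00638% of genes called.

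Ccnb3 lies on the X chromosome, which is silenced in pachytene spermatocytes of normal males, and X-linked genes were called higher in Z of both mutants and in P of TDP-43 cKO. In Z, 210 of 497 X-linked genes tested (42.3%) were called higher in TDP-43 cKO, with a median log2 change of 1.05 (quartiles 0.61 and 1.55), and 1.51% of 12384 autosomal genes, with a median of 0.00. In NELF-B cKO the numbers were 69 X-linked genes (13.9%) with a median of 0.70, and 0.557% of autosomal genes with a median of -0.03. In P, 73 of 460 X-linked genes (15.9%) were called higher in TDP-43 cKO, with a median of 1.17, and 0 in NELF-B cKO, with a median of 0.31. Of the autosomal genes in P, 0.642% were called higher in TDP-43 cKO and 0% in NELF-B cKO. In D of TDP-43 cKO, where Ccnb3 was also called, 20 of 343 X-linked genes were called higher (5.83%) and 19 lower, with a median of 0.25. Of 14024 autosomal genes there, 231 were called higher (1.65%) and 490 lower, with a median of 0.01. Ccnb3 therefore lay above the upper quartile of X-linked genes in Z in both mutants. In the controls the X-linked median was -2.47 from Z to P, with 481 of 709 genes called lower (67.8%), beside 12.6% of autosomal genes.

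Levels of stage markers within these stages differed as well. Within the cells called Z, the summed level of 5 preleptotene markers was 72.6 to 108 in the controls, 132 and 157 in NELF-B cKO and 216 to 241 in TDP-43 cKO, and that of 5 leptotene markers 553 to 718, 620 and 868, and 790 to 999. The 5 diplotene markers were at 746 to 1673, 942 and 260, and 213 to 326. In P, zygotene markers were 2343 to 2674 in the controls and 4846 and 5794 in TDP-43 cKO, and diplotene markers 6145 to 6501 and 3695 and 3102. These markers were part of the clustering. Whether their levels reflect the stage make-up, X-linked genes among them or free RNA was not tested. The part of the stage make-up, of the X-linked genes as a whole and of free RNA in the Ccnb3 result was not tested either.

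**Figure D5:**
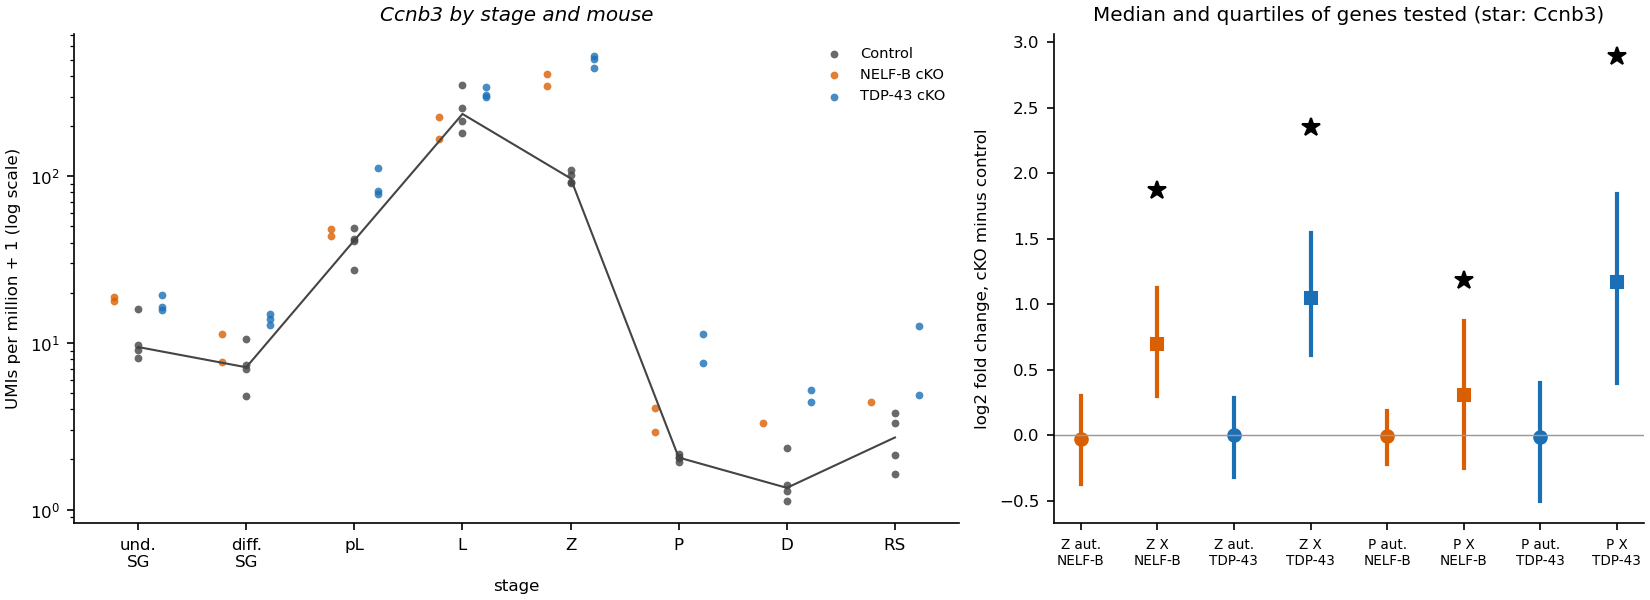
Left, Ccnb3 by stage in each mouse (CPM + 1, log axis, sums of at least 20 cells), with a line through the control medians. Right, median and quartiles of the log2 fold change, cKO minus control, of X-linked and autosomal genes tested in Z and P, with Ccnb3 as a star. In Z the mutants sit at 348 to 525 and the controls at 89.7 to 108, and the X-linked medians lie above the autosomal ones.

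Ccna1 was the member that fell in Z of TDP-43 cKO. It was 21.9, 12.7, 19.7 and 12.8 in the controls, 22.2 and 2.0 in NELF-B cKO, and 0.393, 1.78 and 2.3 in TDP-43 cKO, the last being 1, 9 and 16 UMIs. The change of -3.24 (SE 0.64, adjusted p = 0.00574) was called, but was lost without any 1 of the controls or TDP-43 cKO mice, with values from -3.70 to -2.96. Undifferentiated SG were at 0.893, 1.2 and 1.21 (-3.22, adjusted p = 0.0457, with 2.33% of genes under 0.05 and 0% called) and L at 0, 2.62 and 0.7 (-4.30, adjusted p = 0.0266, with 11.5% under 0.05). Sertoli cells moved the same way, from 24.9 to 64.4 in the controls to 0.11, 6.8 and 5.8, and so did the barcodes without a cell, from 106 to 142 to 3.52, 29.8 and 24.4. NELF-B cKO 2, with 9.58 in those barcodes, stood apart from NELF-B cKO 1, with 108, in each stage up to Z. With 10% free RNA subtracted, the Z change was -7.15 and not called. The part of free RNA in the Ccna1 result was not tested further.

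At later stages Ccna1 passed the weaker limit of 0.05 only. P, where the controls were at 18.1 to 24.5, held 7.92 and 6.87 in TDP-43 cKO 2 and 3 (-1.59, adjusted p = 0.0323, with 20.4% of genes under 0.05). D, the stage at which Ccna1 is highest in the controls, held 134 and 155 against 223 to 238 (-0.74, SE 0.08, adjusted p = 0.000198, with 32.4% under 0.05). NELF-B cKO 1 was at 238 in D and 115 in RS, where the controls were at 118 to 174. In RS, TDP-43 cKO mice were at 236 and 139.

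Ccne1 stood higher in mutant Z cells. The controls were at 19.2 to 20.9, NELF-B cKO at 43.6 and 26.5 and TDP-43 cKO at 32.3, 36.3 and 35.7, with no overlap. The TDP-43 cKO change was 0.81 (SE 0.17, adjusted p = 0.0064), under the fold threshold, in a stage in which 22.1% of genes had an adjusted p under 0.05, and the NELF-B cKO change was 0.69 (adjusted p = 0.057, with 8.76% under 0.05). The leptotene markers of the same cells, given above, were within the control range in NELF-B cKO 1, the mouse with the highest Ccne1, and above it in the other 4 mutants. Their part in the Ccne1 values was not tested. Cdk1 in Z was 230, 269 and 276 in TDP-43 cKO against 192 to 229 (0.32, SE 0.11, adjusted p = 0.048), and 206 and 193 in NELF-B cKO.

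Cdk1 in pL passed the weaker limit of 0.05 in NELF-B cKO and was not called. It was 61.5 and 72.6 in NELF-B cKO from 267 and 71 cells, against 15.0 to 42.1 in the controls, a log2 change of 1.29 (SE 0.28, adjusted p = 0.0328) in a stage at which 0.183% of genes were called and 2.69% had an adjusted p under 0.05. Cdk4 in D was called in TDP-43 cKO, at 17.6 and 15.8 from 92 and 72 cells against 6.71 to 8.11 (1.13, SE 0.15, adjusted p = 0.000517), and was 0.68 and not called with clusters made without integration, nor called without TDP-43 cKO 2. The Cdk4 call in D was also absent with thinned cells and with free RNA subtracted, where a gene without a value counts as not called. Barcodes without a cell held more Cdk4 in TDP-43 cKO than in the controls, as given above. The part of free RNA in the Cdk4 values in D was not tested further. Cdk2 passed no test between genotypes. In Z it was 38.8 and 48.0 in NELF-B cKO and 29.5, 28.1 and 24.2 in TDP-43 cKO, with the controls at 30.9 to 34.7. Both NELF-B cKO values lay above the controls (0.35, adjusted p = 0.196) and all 3 of TDP-43 cKO below them (-0.23, adjusted p = 0.253).

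Ccnb1 and Ccnb2 passed no test in Z. Ccnb1 in Z was 89.3 and 50.5 in NELF-B cKO and 49.97, 60.4 and 60.3 in TDP-43 cKO, with the controls at 61.6 to 127, and Ccnb2 was 258 and 142 and then 170, 145 and 142 against 165 to 220. The ranges of mutants and controls overlapped for Ccnb2 and, in NELF-B cKO, for Ccnb1, while the 3 TDP-43 cKO values of Ccnb1 lay below those of the controls. In TDP-43 cKO P, Ccnb1 was 30.6 and 32.8 against 14 to 20.8 (0.78, adjusted p = 0.0184) and Cdk1 115 and 158 against 64.5 to 92.9 (0.76, adjusted p = 0.0311), and both groups are apart. These P cells held more zygotene marker RNA, as given above, and its part in the Ccnb1 and Cdk1 values was not tested. In D, Ccnb1 was 80.6 and 82.6 against 119 to 131 (-0.72, SE 0.07, adjusted p = 0.000165), which became 0.04 with clusters made without integration. Ccnb2 there was 221 and 219 against 229 to 261 (-0.23, adjusted p = 0.0307), and Cdk1 87.3 and 110 against 105 to 130 (-0.40, adjusted p = 0.0183).

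No gene of any kind was called in RS of TDP-43 cKO (0% of 16841, and 2231 at an unadjusted p under 0.05 in edgeR), and the lowest adjusted p of a member was 0.318. TDP-43 cKO 2 and 3 had 46 and 85 round spermatids. There Ccnb1 was 300 and 203, Ccna2 5.78 and 19.7 and Ccnd2 1.93 and 20.9 against 136 to 182, 3.2 to 5.21 and 0.884 to 3.07. The latter pair were far apart from one another. NELF-B cKO had 1 mouse with enough cells in D and in RS and was not tested there.

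Ratios between paired genes were compared over mice by a two-sided exact permutation test, whose smallest p is 0.0571 for TDP-43 cKO and 0.133 for NELF-B cKO, so that none of the 12 could reach 0.05. In SG the log2 ratio of Ccna1 to Ccna2 differed by -2.51 in TDP-43 cKO (exact p = 0.0571, adjusted p = 0.229). In pL, L and Z it differed by -4.52 in TDP-43 cKO (exact p = 0.0571, adjusted p = 0.229) and by -2.57 in NELF-B cKO (exact p = 0.133, adjusted p = 0.267). The latter is the mean of unlike mice, with log2 ratios of -0.29 in NELF-B cKO 1 and -4.26 in NELF-B cKO 2 against -0.09 to 0.94 in the controls. The part of free RNA in these Ccna1 values was not tested. In SG of TDP-43 cKO, Ccnb2 to Ccnb1 differed by -0.20 (exact p = 0.0571, adjusted p = 0.229) and Cdk1 to Cdk2 by 0.18 (exact p = 0.229, adjusted p = 0.392). The part of free RNA in the Ccnb2 values of this ratio was not tested either. In NELF-B cKO the Cdk1 to Cdk2 ratio was 0.32 higher in SG and 0.50 lower in pL, L and Z (both exact p = 0.133, adjusted p = 0.267). That sum held 267 and 71 pL cells and 155 and 140 Z cells in NELF-B cKO, and 57 to 124 and 163 to 434 in the controls. Within pL alone NELF-B cKO lay the other way, with 143 and 81 UMIs of Cdk1 to 81 and 44 of Cdk2, where the controls had 24, 17, 55 and 41 to 24, 44, 68 and 67, so no direction is read from the sum. In TDP-43 cKO the ratio differed by -0.02 in pL, L and Z (exact p = 0.971), which is the mean of unlike mice, at 0.74, 2.16 and 2.43 on the log2 scale against 1.52 to 2.01 in the controls.

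Of the 65 other cell cycle genes, 50 to 65 could be tested at a stage, and none was called in NELF-B cKO against control from SG to P, where at most 1.29% of all genes were (D and RS were not tested). At an adjusted p under 0.05 in edgeR, 3 were higher and 1 lower of 59 in pL, beside 2.69% of all genes. In Z 1 was higher and 3 lower of 59, beside 8.76%. In L 4 were higher and 3 lower of 50, and the share of all genes at that limit is not given. In TDP-43 cKO 1 gene rose and 1 fell of 59 tested in Z (3.39%, beside 6.48% of all genes). The kinase Pkmyt1, which holds Cdk1 inactive, was lower (-1.61, SE 0.26, adjusted p = 0.00231) and the D-type cyclin Ccnd1 higher (1.79, SE 0.36, adjusted p = 0.00603). Stage markers in these Z cells differed from the controls, as given above, and their part in these 2 values was not tested. Pkmyt1 was also lower in pL, L and Z together (-1.21, SE 0.20, adjusted p = 0.00708), where 1.11% of genes and, of the members, Ccnb3 (1.77, SE 0.14, adjusted p = 0.000462, not called at 1.56 with the cells holding Tardbp UMIs removed from all mice) were called and 15.1% had an adjusted p under 0.05. At that limit 2 more members passed there, Ccna1 (-3.62, adjusted p = 0.0198) and Ccne1 (0.56, adjusted p = 0.0282). In NELF-B cKO Ccnb3 in these 3 stages together changed by 0.99 (SE 0.16, adjusted p = 0.0174), with 0.0383% of genes called and 6.25% under 0.05. In P the Cdk inhibitors Cdkn1a (3.33, SE 0.27, adjusted p = 0.00143) and Cdkn1c (2.13, SE 0.33, adjusted p = 0.00677) rose, 2 of 62 genes tested (3.23%, beside 2.35% of all genes), on 2 mutant mice. The P cells of TDP-43 cKO held more zygotene marker RNA, as given above, and its part in these values was not tested. The L to Z change of E2f1, a factor that drives S phase genes, differed in NELF-B cKO (1.75, SE 0.31, adjusted p = 0.00365) in the test added after the data were seen, as 1 of 59 listed genes (1.69%, beside 0.816% of all genes).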

How the data were processed

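The deposited matrices hold raw UMI counts of every barcode, neither normalized nor filtered for cells. The authors made them from 3′ droplet libraries with Cell Ranger (6.1.1 and 7.0.0 in the submitters' processing notes, and 7.0.0 in their methods) on mm10. The file headers name another version, so which release made them is not settled. The counts were used as they are, and 0 columns of per-sample values were left without a sample.

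Cells were filtered as in the study, at more than 1000 genes and less than 10% of UMIs from mitochondria, with genes found in over 15 of these cells. Cells were clustered with Seurat 5.3.0 and sctransform 0.4.2, integrated across the 3 genotypes (40 components, resolution 0.8), leaving out the 10 members, the 65 listed genes, Nelfb and Tardbp. Clusters were named from markers, and names may differ from those of the study. No doublet caller was run, and germ cells with UMIs of the targeted gene were kept in the main sums. Cells were also clustered with scanpy 1.11.5 without integration.

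UMIs were summed per mouse and stage, at least 20 cells a sum, and tested with edgeR 4.0.16 (R 4.3.3, TMM, filterByExpr, quasi-likelihood F test, Benjamini-Hochberg over all genes tested). SE is the log2 fold change over the square root of F. All 3 genotypes share the dispersion in a genotype fit, except in D and RS. There NELF-B cKO had 1 mouse with enough cells and was left out of the fit. Stage fits used the control mice with the mouse as a block. DESeq2 1.42.0 was an alternative. The scripts were tested on simulated data: of 100 genes changed by 1.5 on the log2 scale among 19801 tested, 47% were called in the NELF-B cKO comparison, and 63% of as many among 19773 in TDP-43 cKO.

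The members and lists were chosen with earlier results of these data known. All members enter each comparison, with values for those called and for part of the others, and of the other genes named there are up to 4 per list and comparison, those with the largest fold change among the genes called. Replicate numbers were checked for pairing on deviations from the group means over 20009 genes. The correlations of 7 same-numbered pairs ran from -0.485 to 0.368, so the numbers did not pair the mice. Intervals and p-values reflect the spread between mice, 1 library each.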

Additional observations from a re-analysis of the deposited data

Results flagged for a closer look

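In 80 groups of 4 control mice (10 genes by 8 stages), 3 held a mouse far from the other 3, where chance flags about 1 in 20 groups. Ccna1 in D was 238 CPM in Control 4 and 223 in each of the others, a small gap beside an unusually narrow spread. Cdk1 in L was 30.0 in Control 3 and 41.5 to 42.5 in the others. Cdk4 in pL was 19.4 in Control 2 and 28.1 to 29.1 in the others.

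The L to Z change of Ccnb3 differed from that of the controls by 2.17 on the log2 scale in NELF-B cKO and by 1.85 in TDP-43 cKO, by an interaction term in edgeR added after the data were seen. In the controls of the same fit Ccnb3 changed by -1.31 from L to Z.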

How the results depend on the processing

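The 32 calls of 70 member tests between stages became 18 of 50 with clusters made without integration and 51 of 70 at an adjusted p under 0.05 with no fold limit. Leaving out 1 control mouse at a time gave 28 to 33. The shares of all genes called are not given beside the alternative counts here and below, so the counts compare runs only. Changes that turned were those of Cdk1 from differentiating SG to pL (0.31 with the cells in between counted as pL), Ccnb3 from L to Z (0.21 without integration) and Ccnd2 from P to D (0.62 without integration and 0.62 with thinned cells). No cause was tested.

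For NELF-B cKO, the 1 call from pL to D became 2 with DESeq2, 2 without a filter on low counts and 2 at an adjusted p under 0.05. Leaving out 1 mouse gave 1 to 2. In SG, pL, L and Z together it was 0 to 0 without 1 mouse. For TDP-43 cKO that sum gave 2 calls with DESeq2 and 4 at an adjusted p under 0.05 in place of 0, and 0 to 2 without 1 mouse. The 5 calls from pL to D (48 tests) became 2 when mutant germ cells holding Tardbp UMIs were removed, 1 when such cells were removed from all mice, 2 without integration, 9 with DESeq2, 9 without a filter on low counts, 1 with cells thinned to 2000 UMIs, 1 with 10% free RNA subtracted and 16 at an adjusted p under 0.05. Fewer stages had enough cells in the first 2 of these, and clusters without integration held no pL stage, so results with pL have no value there. Most of the calls missing with thinned cells and part of those missing with free RNA subtracted had no value to test. Leaving out 1 mouse gave 1 to 9, with 2 or 3 without each control in turn, 1 and 2 without TDP-43 cKO 2 and 3, and 8 and 9 without NELF-B cKO 1 and 2. A mutant left with 1 mouse was assumed to vary like the other groups. In D these runs also took in NELF-B cKO 1, unless it was the mouse left out, while the main fit did not. This was not run for RS or for SG on their own. The change of Ccnb1 in D became 0.0423 without integration. The stage by genotype counts from SG to pL, L and Z together were 0 in each alternative run and 0 to 0 without 1 mouse.

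With the replicate block the TDP-43 cKO count was 3. The numbers do not pair the mice, as the correlations of same-numbered mice show, and the block changed no other count past 1.5 times.

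Among the ratios, Ccna1 to Ccna2 in SG of NELF-B cKO turned from -0.997 to 2.04 with free RNA subtracted. In pL, L and Z of TDP-43 cKO, Ccnb2 to Ccnb1 turned from -0.03 to 0.0624 without integration, 0.041 with thinned cells and 0.0593 with free RNA subtracted, and Cdk1 to Cdk2 from -0.02 to 0.0893, 0.129 and 0.0048. Without 1 mouse the ratios ranged, in SG, from -2.16 to 0.165 (NELF-B cKO) and -2.68 to -2.19 (TDP-43 cKO) for Ccna1 to Ccna2, -0.48 to 0.11 and -0.23 to -0.17 for Ccnb2 to Ccnb1, and 0.25 to 0.41 and 0.10 to 0.27 for Cdk1 to Cdk2. In pL, L and Z they ranged from -4.56 to -0.58 and -5.28 to -3.31, from -0.0389 to 0.322 and -0.215 to 0.0522, and from -0.60 to -0.44 and -0.35 to 0.49.

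Stages of mutants with few cells (46 to 131 in P, D and RS of TDP-43 cKO 2 and 3) limit the precision there.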

Other observations

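The somatic cells of the same libraries held several of these genes, given here as values with no test. Ccnd2 in Leydig cells, which make androgens between the tubules, was 66.0, 103, 88.9 and 71.2 CPM in Control 1 to 4, 76.6 and 126 in NELF-B cKO and 97.2, 88.2 and 68.6 in TDP-43 cKO. In Sertoli cells Ccnd2 was 11.5 to 28.6 in the controls, 39.4 and 44.0 in NELF-B cKO and 35.1, 47.9 and 43.9 in TDP-43 cKO, so that every mutant lay above every control. The median Sertoli cell held 2075 to 2693.5 UMIs in the controls, 2396 and 3577 in NELF-B cKO and 7982 to 22468 in TDP-43 cKO, and barcodes of 1 to 100 UMIs held 5.25 to 10.6 CPM of Ccnd2 in the controls, 6.38 and 39.4 in NELF-B cKO and 52.1, 35.9 and 48.2 in TDP-43 cKO. The part of depth and of free RNA in the Ccnd2 values was not tested. Cdk4 stood at 120 to 133 CPM in control Leydig cells, at 120 and 127 in those of NELF-B cKO and at 153, 147 and 174 in those of TDP-43 cKO. In Sertoli cells Cdk4 was 83.5 to 121 in the controls, 113 and 127 in NELF-B cKO and 141, 133 and 146 in TDP-43 cKO. Cdk2 was 45.2 to 57.9 in control Sertoli cells and 47.0 to 52.3 in those of the mutants, and 11.4 to 16.6 in Leydig cells of the controls.

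Ccnb2 in Sertoli cells was 99.6, 56.7, 61.2 and 52.7 in the controls, 52.1 and 9.1 in NELF-B cKO and 8.7, 19.6 and 16.6 in TDP-43 cKO. In barcodes of 1 to 100 UMIs of the same libraries, Ccnb2 was 174 to 227 CPM in the controls, 216 and 50.9 in NELF-B cKO and 41.2, 86.0 and 75.8 in TDP-43 cKO. The 4 mice lowest in Sertoli cells were also the 4 lowest in these barcodes, and the part of free RNA in the Sertoli values was not tested.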
